A study of Mus musculus with 18 samples.

Results

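Transcripts of 8 secreted vessel growth factor genes were followed: the 5 genes of the vascular endothelial growth factor (VEGF) family, Vegfa, Vegfb, Vegfc, Vegfd and Pgf, and the 3 angiopoietin genes Angpt1, Angpt2 and Angpt4. They were chosen by gene identity from the 21647 genes listed in the count table, and all 8 were among the 13058 genes with enough reads to test. The libraries came from cultured cells that the labels call embryonic aortic endothelial cells of mice, either Tg737orpk/orpk (orpk, homozygous for an insertion in Ift88, which encodes a carrier of cargo in the primary cilium) or wild type (WT). Cells of both genotypes were serum starved for 24 h and then kept static or exposed to laminar shear of 2 or 30 dyn/cm² for 48 h. How long static cells were kept is not given, so flow and time in culture may not be separable. A serum level of 2% is given for all groups. The groups were orpk static, orpk at 2, orpk at 30, WT static, WT at 2 and WT at 30 dyn/cm², with 3 libraries each. The labels do not say whether each genotype was more than 1 isolate of cells, so genotype and isolate cannot be told apart.

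Ligands of the VEGF family bind receptor tyrosine kinases on endothelial cells. VEGF-A, the main driver of vessel sprouting, binds the receptors encoded by Flt1 and Kdr. VEGF-B and placental growth factor, the product of Pgf, bind the Flt1 product, and VEGF-C and VEGF-D bind the Flt4 product, the receptor of lymphatic vessels. Angiopoietins bind the Tek product: angiopoietin-1 from perivascular cells activates it and steadies vessels, while angiopoietin-2, stored in endothelial cells, can oppose it. Vegfa is a classic target of the hypoxia-inducible factors (HIF), transcription factors that act when oxygen is short.

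Library totals ran from 13626480 to 17387553 reads. Levels below are CPM, the read count scaled to a common library size, after TMM adjustment of the library totals. Ift88 held 7.81 ± 0.57 CPM in orpk and 15.6 ± 2.05 CPM in WT static libraries (SD, n = 3 each). Of 15 endothelial markers 8 were tested, and their summed level was 10.9 to 18.01 CPM in orpk and 9.70 to 13.2 CPM in WT libraries. Cdh5, Tie1 and Erg had 0 reads in all WT groups, and Cldn5 and Robo4 had 0 in all orpk groups. Others were read: Cdh5, Erg, Kdr and Vwf were higher in orpk than in WT at each shear level, and Egfl7 and Pecam1 were higher in WT. Of the 15, 9, 10 and 11 lay under 1 CPM in orpk at static, 2 and 30 dyn/cm², and 13 or 14 in WT. Most of these markers thus go against the endothelial label. Summed fibroblast markers (7 of 8 tested) reached 25735 to 40742 CPM in orpk and 716 to 1155 CPM in WT libraries. Summed smooth muscle and pericyte markers (6 of 10 tested) reached 1733 to 3695 CPM in orpk and 10.2 to 14.8 CPM in WT libraries. Epithelial and mesothelial markers (8 of 9 tested) summed to 158 to 301 CPM in orpk and 571 to 958 CPM in WT libraries. These sums hide members that went opposite ways. In orpk 6 or 7 of the 9 lay under 1 CPM, against 2 or 3 in WT. Msln was instead 2.10-, 2.75- and 5.82-fold higher in orpk at static, 2 and 30 dyn/cm². Krt19 was 1.67-fold lower in static orpk cells and 3.01-fold higher in orpk at 2 dyn/cm². Every genotype difference below stands beside these differences, and their part in it was not tested. In such bulk samples, fewer cells of a type and less RNA per cell cannot be told apart.

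Counts of replicate 1 of WT at 2 dyn/cm² differed most from those of its group (chi-square per degree of freedom 6.35 and 7.74, against 1.44 between the other 2). Replicate 2 of orpk at 2 dyn/cm² was next (3.39 and 3.79, against 1.58), and the other groups ran from 1.21 to 2.33. Without the WT replicate, 29 of the 30 fold changes of the ligand genes that use that group stayed on the same side of the threshold, the exception being a Vegfb value given below. Without the orpk replicate, all 34 that use its group did. Group differences were tested with edgeR's quasi-likelihood test, with Benjamini-Hochberg adjustment over the 13058 genes of each comparison and a threshold of 0.05.

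Vegfa (ENSMUSG00000023951, GRCm38 chromosome 17, 46016993 to 46032369, minus strand) was the most abundant of the 8 in static cells of both genotypes, and flow lowered it. In orpk the libraries held 371, 383 and 360.3 CPM in static cells, 96.8, 97.5 and 100.4 CPM at 2 dyn/cm² and 284, 296 and 297 CPM at 30 dyn/cm². In WT they held 481, 459.7 and 486 CPM in static cells, 63.5, 64.5 and 63.8 CPM at 2 dyn/cm² and 64.0, 63.9 and 65.1 CPM at 30 dyn/cm². In orpk the lowest level was thus at 2 dyn/cm² and the libraries of the 3 shear levels did not overlap, whereas WT libraries at 30 and 2 dyn/cm² did. Vegfa was 3.78-fold lower in orpk at 2 dyn/cm² than in static orpk cells (log2 fold change -1.92 ± 0.04 SE, edgeR adjusted p = 5.70e-35). Orpk cells at 30 dyn/cm² were only 1.27-fold below static orpk cells (-0.34 ± 0.03, edgeR adjusted p = 6.79e-12), and 2.98-fold above orpk at 2 dyn/cm² (1.57 ± 0.04, edgeR adjusted p = 6.22e-32). In WT it was 7.45-fold lower at 2 and 7.40-fold lower at 30 dyn/cm² than in static cells (-2.90 ± 0.04 and -2.89 ± 0.04, edgeR adjusted p = 3.54e-41 and 2.72e-41). WT at 30 and at 2 dyn/cm² differed by 0.01 ± 0.04 on the log2 scale (edgeR adjusted p = 0.91).

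The change of Vegfa was therefore different between the genotypes in every shear comparison, by the interaction test of orpk minus WT changes. That difference was 0.98 ± 0.05 for 2 dyn/cm² against static, 2.54 ± 0.05 for 30 dyn/cm² against static and 1.56 ± 0.06 for 30 against 2 dyn/cm² (edgeR adjusted p = 2.50e-19, 2.49e-34 and 1.22e-24). Compared at 1 shear level, Vegfa was 1.28-fold lower in orpk than in WT in static cells (log2 fold change -0.36 ± 0.03). It was 1.54-fold higher in orpk at 2 dyn/cm² (0.62 ± 0.04) and 4.55-fold higher at 30 dyn/cm² (2.18 ± 0.04, edgeR adjusted p = 4.84e-13, 7.09e-18 and 3.09e-38 in this order). With library totals as the scaling these differences were -0.57, 0.40 and 1.87. Gene counts do not separate the splice forms of Vegfa.

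**Figure D1:**
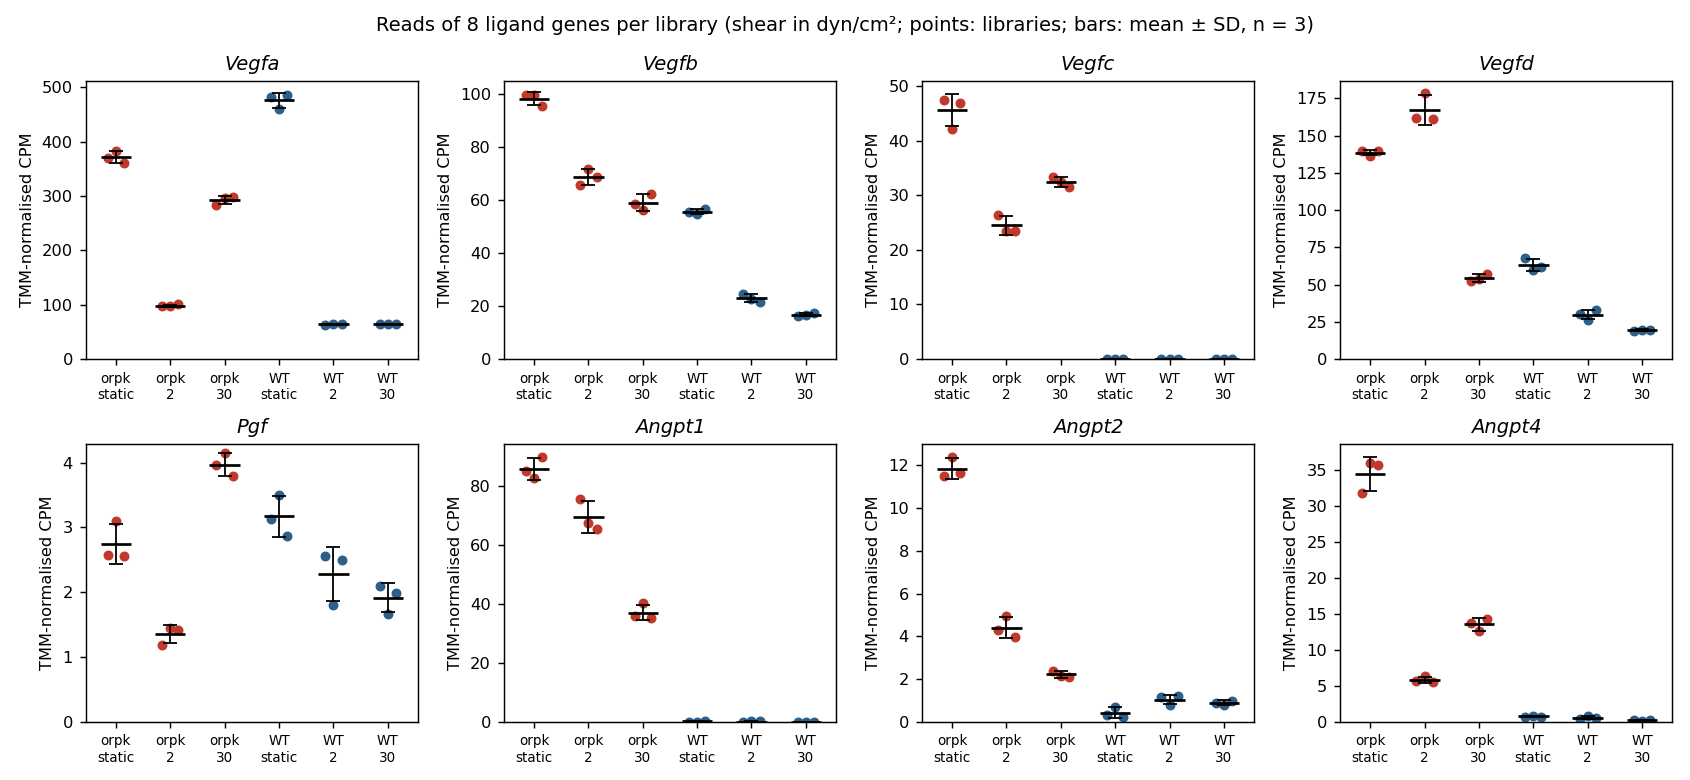
TMM-normalised CPM of the 8 ligand genes in each of 18 libraries (points), with mean and SD of each group of 3 (bars), by genotype and shear in dyn/cm²; each panel has its own axis from 0. Vegfa at 30 dyn/cm² lies between 284 and 297 CPM in orpk and between 63.9 and 65.1 CPM in WT, and Vegfc and Angpt1 lie at or near 0 in WT.

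Because hypoxia response elements are known upstream of Vegfa, the 250 bases before each transcription start listed by RefSeq (GRCm38.p6) were searched for their core motif. The table holds 8 such windows for 6 of the 8 genes, with 2 starts each for Vegfa and Pgf. Both Vegfa windows are shown, and the Vegfb and Angpt4 windows for their matches. The core was searched as ACGTG or GCGTG on both strands, and at least 1 match lies in 38.6% of the 32851 mouse promoters of that length searched. Capitals mark matches, where CACGC and CACGT are GCGTG and ACGTG read on the other strand.
Vegfa, start 1: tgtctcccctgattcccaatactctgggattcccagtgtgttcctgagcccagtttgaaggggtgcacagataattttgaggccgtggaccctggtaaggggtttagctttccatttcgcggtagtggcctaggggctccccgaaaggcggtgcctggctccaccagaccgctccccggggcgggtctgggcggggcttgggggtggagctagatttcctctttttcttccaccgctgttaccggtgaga
Vegfa, start 2: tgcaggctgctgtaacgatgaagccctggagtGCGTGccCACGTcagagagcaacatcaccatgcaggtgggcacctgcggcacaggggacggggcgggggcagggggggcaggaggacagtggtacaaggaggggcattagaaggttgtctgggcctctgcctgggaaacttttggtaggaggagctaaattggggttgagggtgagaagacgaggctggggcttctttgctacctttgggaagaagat
Vegfb: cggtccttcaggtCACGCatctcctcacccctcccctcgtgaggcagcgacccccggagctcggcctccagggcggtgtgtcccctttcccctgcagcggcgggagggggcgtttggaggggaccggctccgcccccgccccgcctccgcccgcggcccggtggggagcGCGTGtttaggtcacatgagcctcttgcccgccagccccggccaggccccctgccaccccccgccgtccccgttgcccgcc
Angpt4: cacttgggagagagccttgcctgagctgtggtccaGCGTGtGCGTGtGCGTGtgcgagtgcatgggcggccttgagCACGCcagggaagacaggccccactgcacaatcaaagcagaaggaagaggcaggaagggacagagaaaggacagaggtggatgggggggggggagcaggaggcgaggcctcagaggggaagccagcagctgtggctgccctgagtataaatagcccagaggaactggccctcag
The Vegfa window at start 1 (chr17:46032378-46032627, minus strand) held no match. Sequence further upstream than 250 bases was not searched, so elements there would be missed. The window at start 2 (chr17:46025164-46025413, minus strand) held 2, GCGTG and CACGT. It lies inside the gene and downstream of start 1, so these matches are also part of sequence transcribed from start 1. Whether they act as promoter sequence was not tested. The Vegfb window (chr19:6987652-6987901, minus strand) held 2, and the Angpt4 window (chr2:151910957-151911206, plus strand) held 4, 3 of them as adjoining repeats. Pgf held 1 match (CACGC) at start 1 and none at start 2, and the Vegfc and Vegfd windows held none. None of the 8 windows held the AP-1 motif TGANTCA or the TEAD motif GGAATG, which lie in 6.75% and 12.6% of promoters searched on both strands.

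Vegfa was next set beside 16 other HIF target genes. All 16 fell in each of the 4 comparisons of flow with static cells, with a median log2 fold change of -1.45 in orpk at 2 and -1.57 in orpk at 30 dyn/cm², and -2.37 in WT at 2 and -2.60 in WT at 30 dyn/cm². Over all tested genes 31.1%, 33.3%, 30.3% and 32.7% fell in these comparisons in the same order, and the medians lay between 0.00 and 0.02. With library totals as the scaling, 22.8% fell in orpk at 2 dyn/cm², and 22.3% and 26.7% in WT at 2 and 30 dyn/cm². Bnip3, which encodes a mitochondrial protein of mitophagy, changed by -4.65 ± 0.07 in orpk and -4.88 ± 0.07 in WT at 30 dyn/cm² against static. Vegfa also fell in all 4, but in orpk at 30 dyn/cm² its change (-0.34) was far smaller than the median of these genes. Of the 16, Bhlhe40 (-0.13) and Vldlr (-0.34) changed as little there. Between the 2 shear levels in orpk, 6 of the 16 rose and 8 fell, with a median of -0.14, while Vegfa rose by 1.57. Of all tested genes 32.1% rose and 31.5% fell there. Bnip3 held 8.58 ± 0.99 CPM in orpk at 30 and 63.3 ± 4.51 CPM in orpk at 2 dyn/cm² (-2.88 ± 0.08, edgeR adjusted p = 1.19e-27). Pdk1, whose product restrains pyruvate entry into mitochondria, held 13.8 ± 0.22 CPM in orpk at 30 and 65.7 ± 4.61 CPM in orpk at 2 dyn/cm² (-2.26 ± 0.07, edgeR adjusted p = 3.70e-28). Bhlhe40, a transcriptional repressor of the clock and hypoxia responses, instead held 338 ± 2.49 CPM in orpk at 30 and 127 ± 4.02 CPM in orpk at 2 dyn/cm² (1.41 ± 0.04, edgeR adjusted p = 1.35e-29). Bhlhe40 also rose in WT at 30 against 2 dyn/cm² (1.23 ± 0.04, edgeR adjusted p = 1.47e-24), where Vegfa did not pass.

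**Figure D2:**
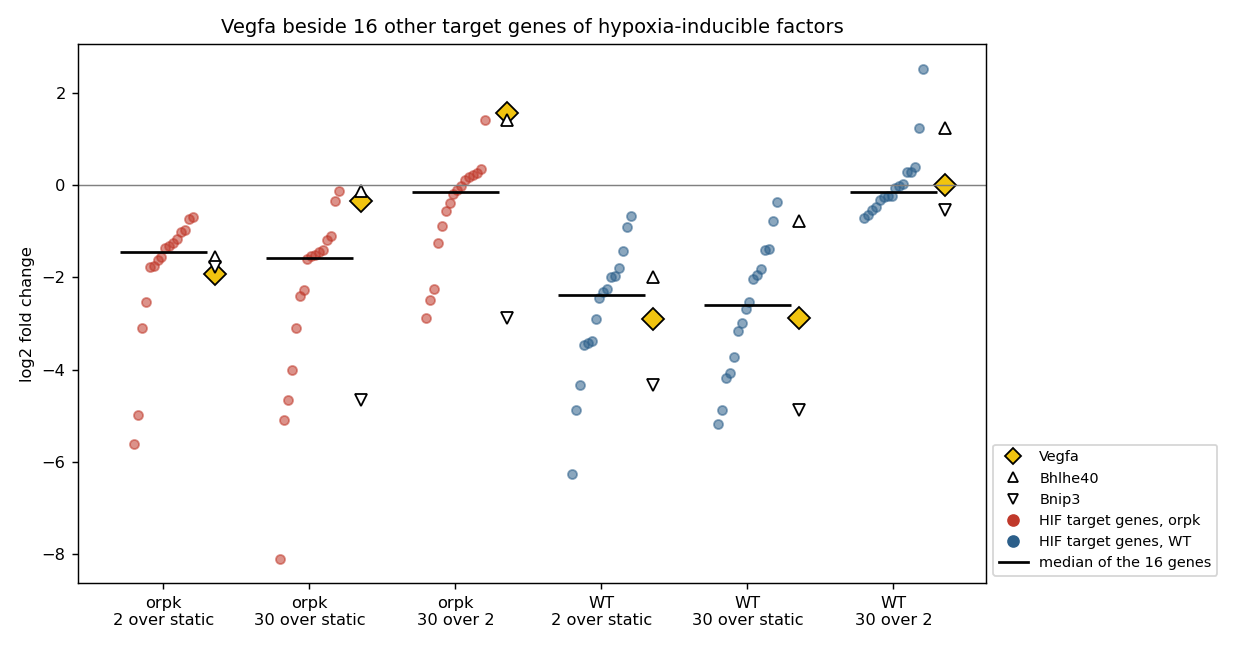
Log2 fold changes of 16 HIF target genes (points, black line at the median) and of Vegfa (diamond) in 6 shear comparisons, with Bhlhe40 and Bnip3 as triangles beside them. In orpk at 30 against 2 dyn/cm² Vegfa lies at 1.57 and Bnip3 at -2.88, with a median of -0.14.

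Among the 14 genes of HIF and VEGF mRNA control, 10 fell and 2 rose in orpk at 2, and 11 fell and 2 rose in orpk at 30 dyn/cm² against static. In WT 8 fell and 2 rose at 2, and 9 fell and 3 rose at 30 dyn/cm². The list pools genes that drive HIF or Vegfa mRNA with genes that restrain them, so its counts give no direction of HIF activity. In orpk at 2 dyn/cm² against static the restraining genes Vhl (-1.22), Egln1 (-1.38), Egln2 (-0.25), Egln3 (-3.09), Hif3a (-1.49) and Zfp36l1 (-1.27) fell. Of the same kind, Hif1an rose (0.30, all as log2 fold changes). Egln3 is also counted among the HIF target genes above. Of all tested genes 31.1% fell and 30.9% rose in orpk at 2 and 33.3% fell and 36.5% rose in orpk at 30 dyn/cm², and in WT 30.3% fell and 32.6% rose at 2 and 32.7% fell and 34.1% rose at 30 dyn/cm². Hif1a, which encodes an oxygen-regulated subunit, was lower in all 4, by log2 fold changes of -0.67 and -1.11 in orpk and of -0.85 and -0.90 in WT at 2 and 30 dyn/cm². Epas1, also a HIF subunit gene, passed in none of the 4, with -0.20 and -0.06 in WT at 2 and 30 dyn/cm². Its level in orpk was far below that in WT at each shear level. The orpk changes of Epas1 had SEs of 0.85 and 0.87 on the log2 scale at 2 and 30 dyn/cm², so a change there could be missed. The genes most like Vegfa were found as those with the smallest root mean square difference of mean log2 CPM, centred within each genotype, over the 6 groups. Among 10627 genes these were Ciart (0.29), Bhlhe41 (0.34) and Slco4a1 (0.36), against a median of 1.15 over all genes compared.

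Vegfb (ENSMUSG00000024962, chromosome 19, 6982473 to 6987651, minus strand) fell with shear in both genotypes, in steps. Its libraries held 99.6, 99.3 and 95.2 CPM in orpk static, 65.5, 71.7 and 68.6 CPM in orpk at 2 and 58.5, 56.1 and 62.2 CPM in orpk at 30 dyn/cm². In WT they held 55.5, 54.7 and 56.4 CPM in static cells, 24.4, 22.7 and 21.4 CPM at 2 and 16.1, 16.5 and 17.2 CPM at 30 dyn/cm². No 2 shear levels overlapped in either genotype, and all static and sheared orpk libraries lay above the WT libraries of the same shear. Under 30 dyn/cm² Vegfb fell by 0.74 ± 0.05 (log2, SE) in orpk and by 1.74 ± 0.06 in WT against static, and the difference of these changes was 1.01 ± 0.08 (edgeR adjusted p = 1.46e-14). At 2 dyn/cm² the changes were -0.51 ± 0.05 in orpk and -1.28 ± 0.06 in WT, a difference of 0.77 ± 0.07 (edgeR adjusted p = 8.38e-12). From 2 to 30 dyn/cm² the changes were -0.22 ± 0.05 in orpk and -0.46 ± 0.07 in WT. Their difference of 0.24 ± 0.08 passed narrowly (edgeR adjusted p = 0.0178), and without replicate 1 of WT at 2 dyn/cm² it was 0.19 (edgeR adjusted p = 0.0753). It also missed the threshold without replicate 1 of WT at 30 dyn/cm² (0.22, edgeR adjusted p = 0.0504) and without replicate 3 of orpk at 30 dyn/cm² (0.20, edgeR adjusted p = 0.0609). The genes most like Vegfb were 1190002N15Rik, Capn5 and Cpq, with root mean square differences of 0.05, 0.05 and 0.06 over the 6 groups.

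Vegfd (ENSMUSG00000031380, chromosome X, 164373378 to 164402650, plus strand), which encodes a lymphatic growth factor, was the 1 VEGF family gene that rose under low shear in orpk. Its orpk libraries held 139.9, 136 and 139 CPM in static cells, 162, 179 and 161 CPM at 2 and 52.2, 53.7 and 57.0 CPM at 30 dyn/cm². Those of WT had 67.7, 59.5 and 62.0 CPM in static cells, 30.2, 26.4 and 32.6 CPM at 2 and 18.9, 19.8 and 19.4 CPM at 30 dyn/cm². No 2 shear levels overlapped in either genotype. Against static cells, the change at 2 dyn/cm² was 0.27 ± 0.05 in orpk (edgeR adjusted p = 2.88e-06) and -1.08 ± 0.06 in WT (edgeR adjusted p = 6.14e-19). The difference of these changes was 1.35 ± 0.08 (edgeR adjusted p = 1.82e-18). Without replicate 2 of orpk at 2 dyn/cm², its highest library, the orpk change was 0.22. From 2 to 30 dyn/cm² Vegfd fell by 1.62 ± 0.05 in orpk and by 0.62 ± 0.07 in WT (difference -1.0004 ± 0.09, edgeR adjusted p = 2.56e-12). Against static cells, 30 dyn/cm² gave -1.35 ± 0.05 in orpk and -1.70 ± 0.06 in WT. Vegfd was 5.61-fold higher in orpk than in WT at 2 dyn/cm², 2.80-fold higher at 30 dyn/cm² and 2.20-fold higher in static cells. Neurl1b, Mapt and Tle6 were most like it (0.10, 0.14 and 0.18 over the 6 groups).

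Vegfc (ENSMUSG00000031520, chromosome 8, 54077606 to 54187096, plus strand), the main lymphatic growth factor, was read almost only in orpk. Its orpk libraries held 47.6, 42.2 and 46.997 CPM in static cells, 26.5, 23.5 and 23.5 CPM at 2 and 33.4, 32.5 and 31.5 CPM at 30 dyn/cm². Over 9 libraries WT gave 1 read in all, in replicate 2 of static cells. From 1963 reads in orpk and 1 in WT, the static ratio was 2138, with a 95% exact counting interval of 383 to 84484. Against a floor of 3 reads over the WT group it was at least 435-fold higher in orpk at 2 and at least 572-fold higher at 30 dyn/cm². Like Vegfa, Vegfc was lowest at 2 dyn/cm² in orpk (-0.90 ± 0.07 against static), and it rose by 0.41 ± 0.07 from there to 30 dyn/cm² (edgeR adjusted p = 4.48e-06). Its 30 dyn/cm² libraries remained below static cells (-0.49 ± 0.07, edgeR adjusted p = 2.90e-08).

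Pgf (ENSMUSG00000004791, chromosome 12, 85166635 to 85177790, minus strand) was scarce throughout and also had its lowest level in orpk at 2 dyn/cm². The orpk libraries held 2.57, 3.10 and 2.56 CPM in static cells, 1.19, 1.44 and 1.42 CPM at 2 and 3.97, 4.14 and 3.80 CPM at 30 dyn/cm². WT had 3.13, 3.50 and 2.87 CPM in static cells, 2.55, 1.802 and 2.50 CPM at 2 and 2.10, 1.66 and 1.98 CPM at 30 dyn/cm². In orpk no 2 shear levels overlapped, while in WT those at 30 and 2 dyn/cm² did, as did static orpk and WT libraries. Between 30 dyn/cm² and static cells, Pgf changed by 0.53 ± 0.17 in orpk (edgeR adjusted p = 0.00563) and by -0.72 ± 0.18 in WT (edgeR adjusted p = 0.000507), a difference of 1.25 ± 0.25 (edgeR adjusted p = 3.27e-05). From 2 to 30 dyn/cm² it rose 2.92-fold in orpk (1.55 ± 0.19, edgeR adjusted p = 4.12e-09), and WT gave -0.27 ± 0.19 (edgeR adjusted p = 0.303, difference 1.81 ± 0.27, edgeR adjusted p = 4.39e-07). At 2 dyn/cm² against static it fell by 1.02 ± 0.21 in orpk and by 0.45 ± 0.17 in WT. The WT call (edgeR adjusted p = 0.0196) was lost without replicate 2 of WT static cells (edgeR adjusted p = 0.0828) or replicate 2 of WT at 2 dyn/cm² (edgeR adjusted p = 0.139), and with library totals as the scaling (edgeR adjusted p = 0.0760). The difference of the 2 dyn/cm² changes, -0.56 ± 0.27, did not pass (edgeR adjusted p = 0.0777), but did without replicate 2 of WT at 2 dyn/cm² (-0.70, edgeR adjusted p = 0.0330).

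Angpt1 (ENSMUSG00000022309, chromosome 15, 42424723 to 42676977, minus strand), the activating Tek ligand, fell with shear in orpk and was almost unread in WT. Its orpk libraries held 85.1, 82.7 and 90.0 CPM in static cells, 75.9, 67.7 and 65.7 CPM at 2 and 36.0, 40.2 and 35.2 CPM at 30 dyn/cm². Each of the 9 WT libraries held 0 to 2 reads. The ratio of orpk to WT was 1009 in static cells (95% exact counting interval 394 to 3704), 930.5 at 2 (363 to 3417) and 983 at 30 dyn/cm² (272 to 8128). In orpk, libraries at the 3 shear levels did not overlap, with changes against static of -0.30 ± 0.05 at 2 and -1.21 ± 0.06 at 30 dyn/cm², and -0.91 ± 0.06 for 30 against 2 dyn/cm² (edgeR adjusted p = 4.84e-06, 2.55e-21 and 9.03e-17). Angpt1 shares 737 exon bases with Gm17473 on the other strand. Tenm3, Pcdh9 and Wdr31 were most like it (0.04, 0.04 and 0.05 over the 6 groups), in a comparison in which its WT levels lie at the floor.

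Angpt2 (ENSMUSG00000031465, chromosome 8, 18690263 to 18741562, minus strand) changed in opposite directions in the genotypes. Its orpk libraries held 11.5, 12.4 and 11.6 CPM in static cells, 4.30, 4.93 and 3.96 CPM at 2 and 2.397, 2.14 and 2.09 CPM at 30 dyn/cm². In WT there were 5, 10 and 4 reads in static cells (0.33, 0.70 and 0.23 CPM), 21, 13 and 22 reads at 2 (1.14, 0.78 and 1.19 CPM) and 15, 14 and 18 reads at 30 dyn/cm² (0.90, 0.78 and 0.99 CPM). In orpk the 3 shear levels did not overlap. In WT the sheared libraries all lay above the static ones and overlapped each other. Angpt2 was 5.35-fold lower in orpk at 30 dyn/cm² than in static orpk cells (-2.42 ± 0.15) and 2.69-fold lower at 2 dyn/cm² (-1.43 ± 0.12). In WT it exceeded the static level at 2 (1.36 ± 0.35, edgeR adjusted p = 0.000783) and at 30 dyn/cm² (1.12 ± 0.36, edgeR adjusted p = 0.00601). Without replicate 3 of WT static cells the value at 30 dyn/cm² was 0.80 (edgeR adjusted p = 0.0724). The differences of the changes were -2.78 ± 0.36 at 2 and -3.54 ± 0.39 at 30 dyn/cm² (edgeR adjusted p = 1.79e-08 and 2.79e-10), and -0.76 ± 0.34 for 30 against 2 dyn/cm² (edgeR adjusted p = 0.0615, and 0.0469 without replicate 3 of orpk at 2 dyn/cm²). The excess in orpk over WT was 28.8-fold in static cells, 4.18-fold at 2 and 2.47-fold at 30 dyn/cm². Angpt2 lies opposite Mcph1, with 0 exon bases shared.

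Angpt4 (ENSMUSG00000027460, chromosome 2, 151911210 to 151945337, plus strand), a further Tek ligand, followed the shape of Vegfa in orpk. Its orpk libraries held 31.8, 36.0 and 35.7 CPM in static cells, 5.62, 6.31 and 5.51 CPM at 2 and 13.8, 12.6 and 14.3 CPM at 30 dyn/cm², with no overlap. The libraries of WT had 11, 12 and 12 reads in static cells, 8, 14 and 9 reads at 2 and 4, 3 and 5 reads at 30 dyn/cm². Angpt4 was 5.92-fold lower in orpk at 2 dyn/cm² than in static cells (-2.57 ± 0.09, edgeR adjusted p = 4.07e-26), and 2.32-fold higher at 30 than at 2 dyn/cm² (1.22 ± 0.11, edgeR adjusted p = 4.19e-13). The level at 30 dyn/cm² remained 2.55-fold below static orpk cells (-1.35 ± 0.08). In WT it was lower at 30 dyn/cm² than in static cells (-1.68 ± 0.42, edgeR adjusted p = 0.000529), and 2 dyn/cm² gave -0.36 ± 0.34 (edgeR adjusted p = 0.382). The WT value for 30 against 2 dyn/cm², -1.32 ± 0.43 (edgeR adjusted p = 0.0155), lost its call without replicate 2 of WT at 2 dyn/cm² (edgeR adjusted p = 0.144) or replicate 2 of WT at 30 dyn/cm² (edgeR adjusted p = 0.0756). The changes differed by -2.21 ± 0.37 for 2 dyn/cm² against static and by 2.54 ± 0.44 for 30 against 2 dyn/cm² (edgeR adjusted p = 2.92e-06 and 7.12e-06). Prss35 was most like Angpt4 (0.17 over the 6 groups). The WT means of Angpt4, 0.23 to 0.75 CPM, lie near the 0.5 CPM added before taking logs, so this likeness rests mainly on orpk.

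**Figure D3:**
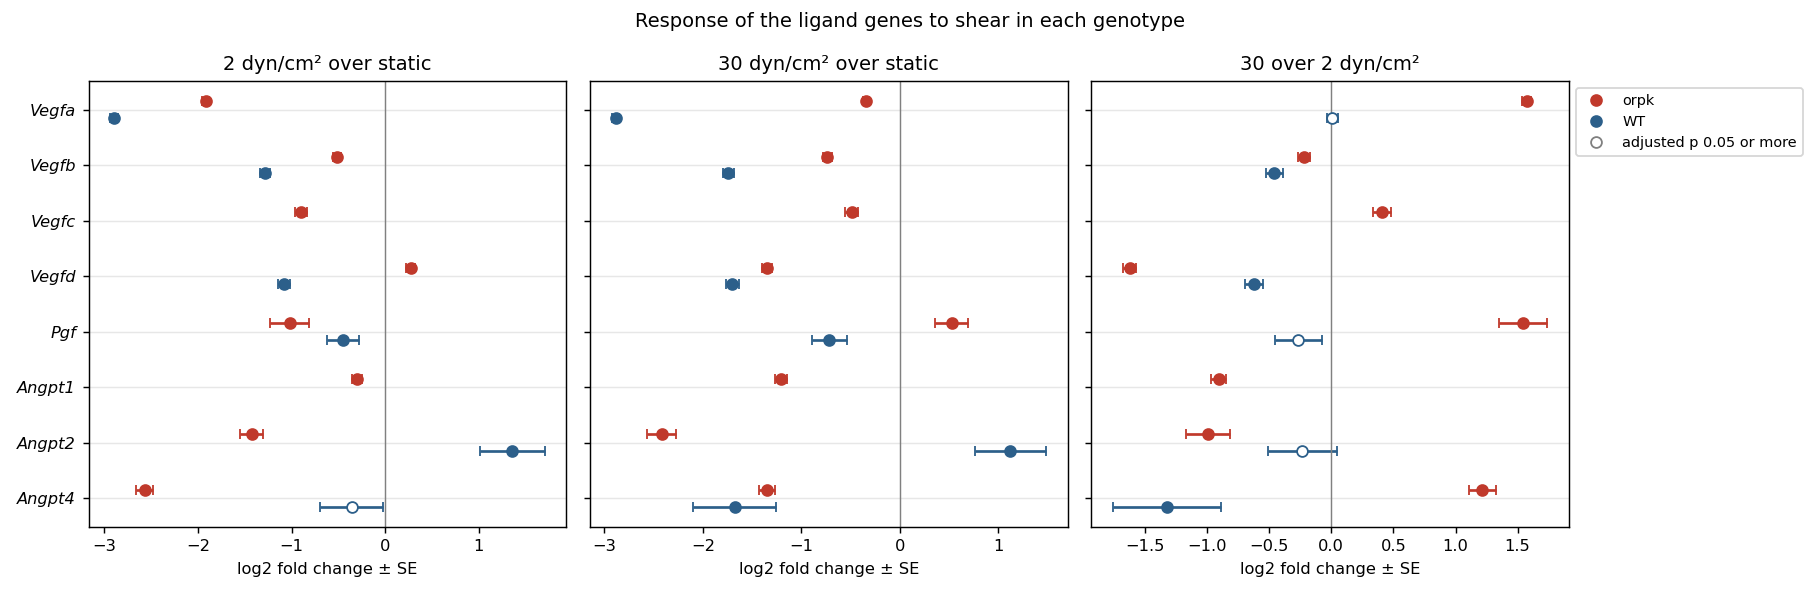
Log2 fold changes with SE of the ligand genes in 3 shear comparisons, orpk in red above WT in blue, for genes with at least 10 reads in each group compared; open points did not pass. For 30 against 2 dyn/cm² Vegfa lies at 1.57 in orpk and 0.01 in WT, and against static Angpt2 lies below 0 in orpk and above 0 in WT.

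Counted over the 8 genes, 7 fell and 1 rose in orpk at 2 dyn/cm² against static, where 31.1% of all tested genes fell and 30.9% rose (22.8% and 41.1% with library totals as the scaling). Against static, at 30 dyn/cm² 7 fell and 1 rose in orpk, where 33.3% of all genes fell and 36.5% rose. For 30 against 2 dyn/cm² in orpk 4 rose and 4 fell, against 32.1% and 31.5% of all genes (22.3% and 42.5% with library totals). In WT, 6 genes had at least 10 reads in each group. Of these, 4 fell and 1 rose at 2 dyn/cm² against static, where 30.3% of all genes fell and 32.6% rose (22.3% and 43.1% with library totals). Under 30 dyn/cm² against static 5 of the 6 fell and 1 rose, where 32.7% of all genes fell and 34.1% rose (26.7% and 41.3% with library totals). For 30 against 2 dyn/cm² in WT, 3 of the 6 fell, where 17.2% of all genes fell and 15.9% rose.

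Between genotypes, Vegfc and Angpt1 passed the filter on low counts only through their orpk libraries, so they are left out of the counts. Of the other 6, 4 were higher and 1 lower in orpk than in WT in static cells, 5 higher and 1 lower at 2 dyn/cm², and all 6 higher at 30 dyn/cm². As 44.4%, 44.6% and 44.9% of all tested genes were higher in orpk (36.5%, 35.8% and 34.2% with library totals) and 43.4%, 42.9% and 42% lower (51.8%, 52.3% and 54.7%), being called is common there. The change with shear differed between genotypes for 5 of the 6 in each interaction, where 52.6% of all genes passed for 2 dyn/cm² against static, 57.5% for 30 dyn/cm² against static and 46.5% for 30 against 2 dyn/cm². The orpk change was the higher for 3 and the lower for 2 at 2 dyn/cm² against static, where the shares over all genes were 27.1% and 25.4%. It was the higher for 4 and the lower for 1 at 30 dyn/cm² against static, where they were 30.6% and 26.9% (25.1% and 33.6% with library totals). For 30 against 2 dyn/cm² 4 were higher and 1 lower, where they were 25% and 21.5% (18.3% and 28.8% with library totals).

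Levels of the genes can be compared as CPM per kb of exon. In static orpk cells the order was Vegfa (86.6 ± 2.62), Vegfb (61.1 ± 1.52), Vegfd (57.6 ± 0.79), Vegfc (18.6 ± 1.19), Angpt1 (16.5 ± 0.71), Angpt4 (14.8 ± 1.00), Angpt2 (3.21 ± 0.13) and Pgf (0.94 ± 0.11), where libraries of Vegfc and Angpt1 overlapped. In orpk at 2 dyn/cm² Vegfd came first (69.4 ± 4.11), before Vegfb (42.8 ± 1.93) and Vegfa (22.9 ± 0.45). In orpk at 30 dyn/cm² Vegfa was again first (68.2 ± 1.75), before Vegfb (36.7 ± 1.91) and Vegfd (22.6 ± 1.03). In static WT cells Vegfa (111 ± 3.31) stood above Vegfb (34.6 ± 0.52), Vegfd (26.2 ± 1.74) and Pgf (1.09 ± 0.11). In WT at 2 dyn/cm² Vegfa (14.9 ± 0.12), Vegfb (14.2 ± 0.93) and Vegfd (12.4 ± 1.29) overlapped as neighbours, and at 30 dyn/cm² they were 15.0 ± 0.15, 10.3 ± 0.34 and 8.04 ± 0.19.

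Summed over the VEGF family, the level per kb was 225 ± 3.002, 146 ± 5.40 and 142 ± 3.40 in orpk at static, 2 and 30 dyn/cm², and 173 ± 4.86, 42.3 ± 1.36 and 34.1 ± 0.56 in WT. The sums of the 2 sheared orpk groups were thus close while their makeup differed. Vegfa made up 38.5%, 15.8% and 48.0% of the orpk sum at static, 2 and 30 dyn/cm², and Vegfd 25.6%, 47.7% and 15.9%. In WT Vegfa made up 64.2%, 35.3% and 44.1%. The 3 angiopoietins summed to 34.5 ± 1.34, 17.1 ± 1.05 and 13.55 ± 0.13 per kb in orpk, and to 0.45 ± 0.10, 0.55 ± 0.05 and 0.35 ± 0.05 in WT.

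**Figure D4:**
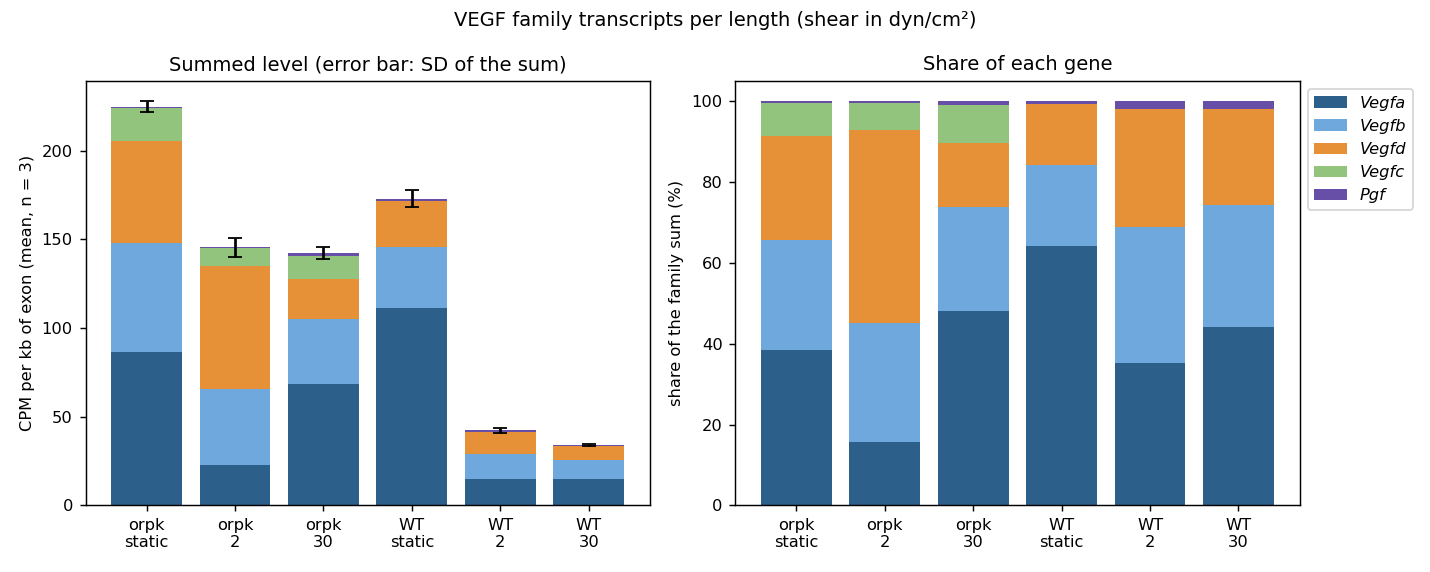
CPM per kb of exon of the 5 VEGF family genes, stacked (left, error bars SD of the sum over 3 libraries), and each gene's share of the sum in percent (right), by genotype and shear in dyn/cm². Vegfd takes 47.7% of the sum in orpk at 2 dyn/cm², and Vegfa 48.0% in orpk at 30 dyn/cm².

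Angpt2 and Angpt1 compete for the Tek product. Their log2 ratio per kb in orpk was -2.36 ± 0.11 without flow, -3.49 ± 0.19 at 2 and -3.57 ± 0.16 at 30 dyn/cm² (SD, n = 3 each), with the static libraries above the sheared ones. The ratio was not formed in WT, where Angpt1 held 4 or fewer reads in a group. Pgf and Vegfa share the Flt1 receptor. Their log2 ratio was -6.52 ± 0.12, -5.63 ± 0.14 and -5.64 ± 0.08 in orpk at static, 2 and 30 dyn/cm², and -6.67 ± 0.18, -4.26 ± 0.29 and -4.51 ± 0.17 in WT.

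Of the receptors, Flt1 and the co-receptor Nrp2 were read in both genotypes and changed in opposite directions at high shear. Flt1 held 93.6 ± 1.38, 80.5 ± 5.00 and 127 ± 0.70 CPM in orpk at static, 2 and 30 dyn/cm², and 40.4 ± 1.04, 15.5 ± 1.53 and 16.4 ± 0.92 CPM in WT. Nrp2, a co-receptor of VEGF-C, held 436 ± 22.6, 387 ± 0.44 and 647 ± 12.05 CPM in orpk and 126 ± 12.2, 38.8 ± 3.14 and 40.4 ± 1.11 CPM in WT. At 30 dyn/cm² against static, Flt1 rose by 0.44 ± 0.05 in orpk and fell by 1.30 ± 0.06 in WT, and Nrp2 rose by 0.57 ± 0.05 in orpk and fell by 1.64 ± 0.06 in WT. The differences of these changes were 1.74 ± 0.08 and 2.21 ± 0.07 (edgeR adjusted p = 6.39e-22 and 2.31e-21). Nrp1, the co-receptor of VEGF-A, moved the other way, by -0.31 ± 0.05 in orpk and 0.59 ± 0.05 in WT (difference -0.90 ± 0.07, edgeR adjusted p = 5.26e-14). Of the signalling receptors other than Flt1, Kdr, Tek and Flt4 were scarce. Flt4 had 0 reads in orpk at 30 dyn/cm², in static WT cells and in WT at 2 dyn/cm². Kdr held 133, 128 and 32 reads in orpk at static, 2 and 30 dyn/cm² and 0, 1 and 0 in WT, and Tek held 72, 91 and 25 reads in orpk and 2, 1 and 2 in WT.

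Of 11 genes for the processing of VEGF-C and VEGF-D 8 were tested. In orpk 1 rose and 5 fell at 2, and 3 rose and 4 fell at 30 dyn/cm² against static. In WT 2 rose and 5 fell at 2, and 3 rose and 4 fell at 30 dyn/cm². Over all tested genes 30.9% rose and 31.1% fell in orpk at 2, 36.5% rose and 33.3% fell in orpk at 30, 32.6% rose and 30.3% fell in WT at 2, and 34.1% rose and 32.7% fell in WT at 30 dyn/cm². The numbers of these genes that rose at 30 dyn/cm² were thus near the share of all genes. Ccbe1, a secreted cofactor of VEGF-C cleavage, held 19.6 ± 0.65, 5.57 ± 0.24 and 24.3 ± 3.25 CPM in orpk at static, 2 and 30 dyn/cm², and 1.28 ± 0.29, 0.37 ± 0.34 and 6.44 ± 0.88 CPM in WT. It was thus lowest at 2 dyn/cm² in both genotypes, with log2 fold changes of -1.81 ± 0.12 in orpk and -1.77 ± 0.39 in WT against static (edgeR adjusted p = 4.06e-16 and 0.000165).

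Of 15 further endothelial genes known to be raised by VEGF 12 were tested. At 30 dyn/cm² against static 5 rose and 3 fell in orpk, with a median log2 fold change of 0.12, and 6 rose and 3 fell in WT, with a median of 0.23. With 36.5% of all tested genes higher and 33.3% lower in orpk, and 34.1% higher and 32.7% lower in WT, the orpk counts lie near those shares, and nothing is read from either about the list. Unc5b, a netrin receptor, rose by 2.62 ± 0.06 in orpk and 1.00 ± 0.06 in WT. Apln, the ligand of the apelin receptor, fell by 5.43 ± 0.09 in orpk and by 3.03 ± 0.06 in WT. Of 8 FOXO and other regulators of Angpt2, 2 rose and 3 fell in orpk and 1 rose and 4 fell in WT in the same comparison, counts that are likewise not read as a result about the list beside those shares of all genes. Foxo3, a forkhead factor, fell by 1.11 ± 0.05 in orpk and by 0.97 ± 0.05 in WT. Foxo1, a related factor, instead rose by 0.35 ± 0.06 in orpk (edgeR adjusted p = 5.13e-07) and did not pass in WT (-0.07 ± 0.04, edgeR adjusted p = 0.147).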

How the data were processed

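Poly(A) RNA of 18 libraries (3 per group) was sequenced from 1 end over 50 nt, as the labels state. Reads went through CASAVA 1.8.2, STAR 2.4 and featureCounts 1.4.6 on GRCm38, per the submitters' processing notes. The deposited values are whole-number read counts per gene. The annotation, strand setting and treatment of multi-mapping reads are not given in the sources used here. Symbols and exon lengths came from GENCODE M21.

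In edgeR 4.0.16 (R 4.3.3), filterByExpr chose the genes, TMM set the scaling, and 1 quasi-likelihood model with robust settings held the 6 group means (biological coefficient of variation 3.28%, 12 residual degrees of freedom), after the code was tested on simulated data. The 3 shear comparisons per genotype, 3 genotype comparisons and 3 interactions were tested. No fitted change is given for a gene with fewer than 10 reads in a group. The p-values measure the spread between libraries, which may be technical, since no separate animals are named. Counting intervals cover counting error only.

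The members and gene lists were chosen with earlier results of these data known. The rule names all 8 genes, up to 4 called genes with the largest change per list and comparison, and the 3 most similar genes; some of these are not reported here. Flt1, Nrp1, Nrp2, Hif1a and the markers were named as key members of their lists, and among the genes the rule allows the text gives a selection chosen after their values were seen. Alternatives were RLE factors, library totals, DESeq2 1.42.0, no filter, a fit of the compared groups only, replicate number as a block, each library left out, and other gene lengths.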

Additional observations from a re-analysis of the deposited data

Results flagged for a closer look

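The change with shear differed between orpk and WT, by the interaction test in edgeR, in 15 cases, given here as the orpk minus the WT log2 fold change. For 2 dyn/cm² against static the difference was 0.98 for Vegfa, 0.77 for Vegfb, 1.35 for Vegfd, -2.78 for Angpt2 and -2.21 for Angpt4. For 30 dyn/cm² against static it was 2.54 for Vegfa, 1.01 for Vegfb, 0.35 for Vegfd, 1.25 for Pgf and -3.54 for Angpt2. For 30 against 2 dyn/cm² it was 1.56 for Vegfa, 0.24 for Vegfb, -1.0004 for Vegfd, 1.81 for Pgf and 2.54 for Angpt4. Differences of Angpt2 and Angpt4 rest on WT groups of 12 to 56 reads.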

How the results depend on the processing

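Of 1043 alternative values of 78 fold changes of the ligand genes, 1027 kept direction and side of the threshold, 11 lost the threshold, 4 gained it and 1 changed sign. That 1 was Vegfa in WT at 30 against 2 dyn/cm², -0.013 with library totals and not called either way. The losses and gains with a library left out stand in the report. With library totals Pgf in static orpk against WT gained a call (-0.41, edgeR adjusted p = 0.0267), Angpt2 gained one in the interaction of 30 against 2 dyn/cm² (-0.85, edgeR adjusted p = 0.0347), and Vegfb lost its there (0.15, edgeR adjusted p = 0.156), as with DESeq2 (adjusted p = 0.0525). Library totals moved the median of all genes by -0.22 to -0.31 in orpk against WT, by 0.11 in WT at 2 dyn/cm² against static and by -0.12 in orpk at 30 against 2 dyn/cm². With the longest transcript as length the Angpt2 to Angpt1 ratio in orpk at static, 2 and 30 dyn/cm² became -2.60, -3.73 and -3.81 and the Pgf to Vegfa ratio -6.36, -5.46 and -5.47. The compared groups alone gave no value for Angpt4 in WT at 30 against 2 dyn/cm². Same-numbered libraries did not deviate together (correlations of -0.08 to 0.09 over 45 pairs), and a replicate block changed none of the 78 fold changes' calls, with 8 of 8 genes called in orpk at 2 dyn/cm² against static as before. Counts of 10 to 60 reads in WT limit Angpt2 and Angpt4, and 4 or fewer leave changes of Angpt1 and Vegfc in WT not detectable at this depth. Without either library that stood apart, chosen after seeing the data, 4 list counts moved over 1.5-fold, each by 1 gene.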

Other observations

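Of 6 angiopoietin-like genes 5 were tested. Angptl4, an inhibitor of lipoprotein lipase, held 0.28 ± 0.15, 22.0 ± 2.09 and 15.2 ± 0.88 CPM in orpk at static, 2 and 30 dyn/cm², and 1.61 ± 0.21, 60.5 ± 4.07 and 97.9 ± 5.08 CPM in WT. Angptl1 held 185, 65 and 5 reads in orpk and 4, 1 and 3 in WT.

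In orpk at 30 dyn/cm² against static, 6 of 16 other secreted factors that act on vessel growth rose and 7 fell. In WT 3 rose and 7 fell. The list also holds inhibitors of vessel growth, Thbs1, Thbs2 and Vash1, so its counts give no direction of angiogenic signal. Of all tested genes 36.5% rose and 33.3% fell in orpk, and 34.1% rose and 32.7% fell in WT, so the count that rose in orpk is near the share of all genes. Fgf2, a fibroblast growth factor, held 6.54 ± 0.94, 7.05 ± 0.37 and 39.98 ± 2.09 CPM in orpk at static, 2 and 30 dyn/cm² and 0.85 ± 0.43, 0.49 ± 0.16 and 0.38 ± 0.17 CPM in WT. At 30 dyn/cm² against static it rose by 2.60 ± 0.10 in orpk and fell by 1.12 ± 0.40 in WT (difference 3.72 ± 0.42, edgeR adjusted p = 5.91e-10). Pdgfb, which recruits mural cells, held 1.75 ± 0.17, 1.70 ± 0.60 and 16.4 ± 2.396 CPM in orpk and 122 ± 3.64, 79.0 ± 0.94 and 175 ± 1.86 CPM in WT, a difference of changes of 2.69 ± 0.16 (edgeR adjusted p = 2.47e-18). Ptn, a heparin-binding growth factor, held 1079 ± 64.8, 950.4 ± 97.2 and 166 ± 3.70 CPM in orpk and 0.17 to 0.32 CPM on average in WT.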
